A study of Mus musculus with 7 samples.

Results

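The CaMKII genes described here are the 4 genes for the subunits of calcium/calmodulin-dependent protein kinase II, Camk2a, Camk2b, Camk2d and Camk2g, and the 2 genes for its small inhibitor proteins, Camk2n1 and Camk2n2. They were taken by name, and the rule itself used no measured value. All 6 were found among the 50600 entries of the bulk count table and among the 15536 genes of the single-cell table. The bulk libraries came from 4 adherent cultures of neural stem and progenitor cells (NSPCs), 2 female (F1, F2) and 2 male (M1, M2), and from whole dentate gyrus (DG) of 1 female (F1) and 1 male (M2) mouse. All mice were C57Bl6J, with no transgene or treatment named. The cultures were started from mice of 6 to 8 weeks, kept on poly-d-lysine and laminin in Neurobasal A with B27 lacking vitamin A and with EGF and FGF2 at 20 ng/ml each, and used at passages 6 to 15. Whole DG was taken from mice of 7 to 9 weeks. A single-cell library of 14912 cells mixed 3 such cultures, 2 female and 1 male, from mice of 6 to 9 weeks, and carries the authors' cluster numbers 0 to 5.

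CaMKII is a multisubunit kinase that calcium-loaded calmodulin switches on. Neighbouring subunits then phosphorylate each other, so that activity outlasts the calcium signal. The alpha subunit (Camk2a) and the beta subunit (Camk2b) are the main brain subunits: alpha is a classic protein of excitatory forebrain neurons and is required for normal hippocampal long-term potentiation, and beta also binds and bundles actin. The delta subunit (Camk2d) is the main one of the heart, and the gamma subunit (Camk2g) is found in many tissues and can carry calmodulin to the nucleus of neurons. Camk2n1 and Camk2n2 encode short proteins that bind the active kinase and block it.

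The genes lie apart in the genome. On GRCm38, Camk2a lies on chromosome 18 from 60925618 to 60988152 (+ strand), Camk2b on chromosome 11 from 5969644 to 6066362 (- strand), and Camk2d on chromosome 3 from 126596302 to 126846326 (+ strand). Camk2g lies on chromosome 14 from 20734875 to 20794088 (- strand), Camk2n1 on chromosome 4 from 138454314 to 138460123 (+ strand), and Camk2n2 on chromosome 16 from 20619215 to 20621287 (- strand). No exon base of any of them overlaps another annotated gene, so none of their counts can hold reads of an overlapping or antisense partner in that annotation.

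The subunits are close paralogs, and their sequences bear on whether reads can be told apart. Over aligned coding bases the 6 subunit pairs were between 76.7% (Camk2d and Camk2g) and 79.8% (Camk2a and Camk2b) identical, and the longest run shared by any pair was 32 bases.

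The window of 150 coding bases in which Camk2b had the fewest summed differences to Camk2d and to Camk2g (bases 622 to 771 from the start codon, GENCODE M21 transcripts on GRCm38, sense strand, from chromosomes 11, 3 and 14) is shown with the bases that differ among the 3 genes in capitals:
Camk2b: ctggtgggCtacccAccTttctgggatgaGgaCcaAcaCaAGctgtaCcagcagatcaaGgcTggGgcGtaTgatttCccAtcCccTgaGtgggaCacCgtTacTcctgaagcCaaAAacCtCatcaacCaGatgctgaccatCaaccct
Camk2d: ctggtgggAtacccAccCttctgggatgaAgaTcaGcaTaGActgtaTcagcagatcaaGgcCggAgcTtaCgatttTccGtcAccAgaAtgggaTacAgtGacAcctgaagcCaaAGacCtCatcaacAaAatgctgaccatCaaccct
Camk2g: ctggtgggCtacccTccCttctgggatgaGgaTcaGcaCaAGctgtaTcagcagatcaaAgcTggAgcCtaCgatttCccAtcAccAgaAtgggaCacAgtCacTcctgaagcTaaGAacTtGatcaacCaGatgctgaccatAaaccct
In that window, 32 of the 150 positions differed among the 3 genes, with 25 between Camk2b and Camk2d, 19 between Camk2b and Camk2g, and 22 between Camk2d and Camk2g. Camk2a was left out of the choice of window.

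The coding sequences of the 2 inhibitor genes were 71.3% identical, and are shown whole because each is short enough to be read at a glance, with capitals where the 2 differ or have no partner in the alignment:
Camk2n1: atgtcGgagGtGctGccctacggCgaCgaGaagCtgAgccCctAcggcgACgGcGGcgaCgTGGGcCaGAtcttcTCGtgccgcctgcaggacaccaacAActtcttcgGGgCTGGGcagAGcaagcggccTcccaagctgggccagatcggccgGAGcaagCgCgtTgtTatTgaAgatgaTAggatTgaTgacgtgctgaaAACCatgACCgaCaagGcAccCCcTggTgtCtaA
Camk2n2: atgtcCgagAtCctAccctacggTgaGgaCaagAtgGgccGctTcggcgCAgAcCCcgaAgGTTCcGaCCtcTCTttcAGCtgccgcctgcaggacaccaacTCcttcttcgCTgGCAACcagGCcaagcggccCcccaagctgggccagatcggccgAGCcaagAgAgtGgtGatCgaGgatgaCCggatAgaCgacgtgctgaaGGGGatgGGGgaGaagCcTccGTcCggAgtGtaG
The lower-case stretch in the middle of both, with 23 bases as the longest unbroken run, is the most alike part of the pair.

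The bulk libraries held 9917697 to 11747408 counts in the cultures and 16676618 and 17351636 in whole DG. Levels are given as counts per 1000000 (CPM) on TMM-scaled library sizes, so that 1 count was worth 0.0826 to 0.0976 CPM in a culture and 0.0608 to 0.0646 CPM in whole DG. The group labels were checked against marker genes. All 10 neuron markers were lower in the cultures, with a summed level of 771 to 961 CPM in cultures and 6920 to 7497 CPM in whole DG; most of the culture sum was Map2. Of 6 neural progenitor markers 5 were higher in the cultures (summed 5495 to 5971 CPM in cultures and 755 to 792 CPM in whole DG) and Sox2 was lower, and all 6 cycling cell markers were higher (934 to 1672 CPM in cultures and 25.6 to 26.8 CPM in whole DG). In the cultures, the oligodendrocyte gene Sox10, the microglial genes C1qa and Aif1 and the endothelial gene Cldn5 were at 0 counts in every library, and the summed markers were 1.39 to 7.26 CPM for oligodendrocytes, 9.27 to 15.998 CPM for microglia and 0.976 to 5.62 CPM for vascular cells, against 1017 to 1256, 217 to 224 and 129 to 144 CPM in whole DG. The 6 astrocyte markers were mixed, with 1 higher in the cultures, 4 lower and 1 not called. They summed to 278 to 738 CPM in cultures and 2963 to 3415 CPM in whole DG. Culture libraries were made with SMART-Seq HT and whole DG libraries with NEBNext Ultra II Directional, so that library kit and group cannot be told apart.

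The first comparison asked how far cultured NSPCs carry the CaMKII genes of the tissue they came from. Camk2a was nearly missing from the cultures, Camk2b and Camk2g were about 10.7-fold and 20.6-fold lower than in whole DG, and both inhibitor genes were close to the level of a few reads. Camk2d went the other way and was the only one of the 6 that was higher in the cultures. All 6 genes were tested and all 6 passed an adjusted p of 0.05, 1 higher and 5 lower, where 77.3% of the 18088 genes tested passed, 35.6% higher and 41.7% lower. With so large a share of all genes called, the count says little of these 6 in particular, and the size and direction of each change are described instead. The median log2 difference of all tested genes was -0.13. Since whole DG mixes many cell types, fewer cells of a type and less RNA per cell cannot be told apart in any of these values.

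Camk2a, the subunit of excitatory forebrain neurons, was at 1.24 (F1), 1.56 (F2), 1.62 (M1) and 1.76 CPM (M2) in the cultures, against 4741 (F1) and 4590 CPM (M2) in whole DG. Those culture values stood for 15, 18, 17 and 18 reads, against 73446 and 75471 reads in whole DG. The groups lay far apart, with little spread inside either. The log2 difference was -11.56 (SE 0.18, edgeR quasi-likelihood test, Benjamini-Hochberg adjusted p = 5.43e-08), and the mean level was 3020-fold lower in the cultures.

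Camk2b, the actin-binding subunit, was the most abundant CaMKII gene of the cultures per kilobase of exon, at 21.8 ± 2.50 CPM per kilobase (SD, n = 4). In CPM it was at 196, 188, 232 and 181 CPM in cultures F1, F2, M1 and M2, against 2045 and 2232 CPM in whole DG F1 and M2. All cultures lay below both whole DG libraries, by a mean of 10.7-fold. The log2 difference was -3.42 (SE 0.14, edgeR adjusted p = 2.89e-07). Camk2g, the widely expressed gamma subunit, was at 12.3, 12.0, 13.5 and 13.2 CPM in the cultures, against 243 and 280 CPM in whole DG. It was the steadiest subunit gene among cultures, with a mean of 12.7 ± 0.707 CPM (SD, n = 4) against 262 ± 26.0 CPM (SD, n = 2). Its log2 difference was -4.36 (SE 0.13, edgeR adjusted p = 8.17e-08).

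Camk2d, the delta subunit, was at 55.2 (F1), 60.3 (F2), 58.1 (M1) and 28.3 CPM (M2) in the cultures, against 23.0 (F1) and 24.6 CPM (M2) in whole DG. F1, F2 and M1 were close together and M2 stood far below them, just above whole DG. The groups did not overlap, as for 83.6% of tested genes. The means were 50.5 ± 14.9 CPM (SD, n = 4) and 23.8 ± 1.08 CPM (SD, n = 2), and the level was 2.12-fold higher in the cultures (log2 difference 1.08, SE 0.30, edgeR adjusted p = 0.0101). This was the least firm of the 6 calls. Without whole DG F1 the adjusted p was 0.0664 and without whole DG M2 it was 0.0529, at log2 differences of 1.04 and 1.13, whereas without culture M2 the log2 difference was 1.29 (edgeR adjusted p = 0.000137).

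The inhibitor genes were at the edge of detection in the bulk cultures. Camk2n1 was at 0.827, 0.607, 0.191 and 0.878 CPM in cultures F1, F2, M1 and M2, against 851 and 865 CPM in whole DG F1 and M2. That was 10, 7, 2 and 9 reads in the cultures, against 13175 and 14219 reads in whole DG. Per kilobase of exon, Camk2n1 averaged 193 CPM in whole DG, above Camk2g at 40.9 CPM. The log2 difference was -10.39 (SE 0.28, edgeR adjusted p = 6.96e-08). Camk2n2 was at 0.165, 0.260, 0.478 and 0.780 CPM in the cultures, from 2, 3, 5 and 8 reads, against 70.2 and 67.3 CPM in whole DG. Its log2 difference was -7.36 (SE 0.33, edgeR adjusted p = 4.91e-07).

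**Figure D1:**
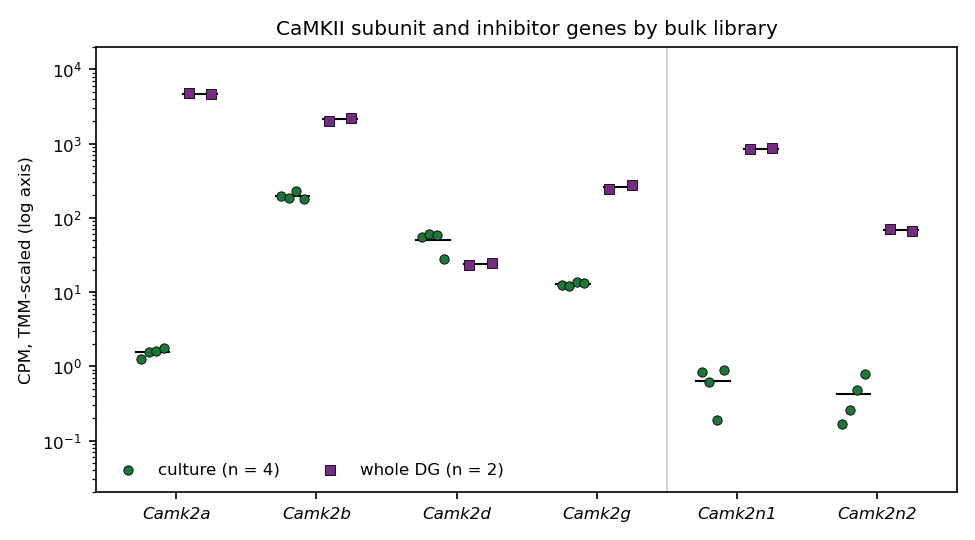
Level of the 6 CaMKII genes in each bulk library, in CPM on a log axis; green circles are the 4 cultures (F1, F2, M1, M2 from left to right), purple squares the 2 whole DG libraries (F1, M2), and black bars the means. Camk2d alone is higher in the cultures, with culture M2 at 28.3 CPM close to the whole DG libraries at 23.0 and 24.6 CPM.

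Levels of different genes were compared per kilobase of annotated exon, and the balance of the subunits was taken as each gene's share of the 4 subunit genes within a library, which needs no scaling between libraries. In whole DG the alpha subunit gene led, with Camk2a at 70.7% (F1) and 68.0% (M2) of the summed level, and Camk2b at 24.9% and 27.0%. In the cultures Camk2b led in every library, at 82.5% (F1), 81.2% (F2), 83.9% (M1) and 84.9% (M2). Camk2a made up 0.796% ± 0.158 (SD, n = 4) of the subunit level in cultures and 69.4% ± 1.92 (SD, n = 2) in whole DG. With 4 libraries against 2 there are 15 splits, and the exact two-sided permutation test cannot give less than p = 0.0667, the value it gave for the share of each of the 4 genes.

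Among the minor subunits, per kilobase of exon, Camk2d exceeded Camk2g in cultures F1, F2 and M1. On that scale Camk2g exceeded Camk2d in culture M2 and in whole DG. Camk2d was at 9.43%, 10.6%, 8.50% and 5.37% of the subunit level in cultures F1, F2, M1 and M2, against 0.114% and 0.121% in whole DG F1 and M2. Camk2g was at 7.39%, 7.39%, 6.93% and 8.78% in the cultures, against 4.23% and 4.84% in whole DG. In read counts, not divided by length, there were 4.48, 5.04, 4.31 and 2.15 Camk2d reads for each Camk2g read in the cultures. In whole DG there were 0.0947 and 0.0878. Exons of Camk2d span 22493 bases and those of Camk2g 6401, so this ratio does not rank the 2 genes within a library. This ratio is free of any scaling between libraries, and its groups did not overlap (exact two-sided permutation p = 0.0667, the smallest possible). For each Camk2a read there were 103 to 158 Camk2b reads in the cultures and 0.431 to 0.486 in whole DG.

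The shares depend on how much of them is Camk2a, so they were also taken over the other 3 subunit genes. Without Camk2a, the Camk2b share was 83.8% ± 1.66 in cultures (SD, n = 4) and 84.8% ± 0.463 in whole DG (SD, n = 2), a difference of -1.06 percentage points (exact two-sided permutation p = 0.467). The higher Camk2b share of the cultures was thus not seen once Camk2a was left out. The Camk2g share changed its direction, with 7.68% ± 0.820 in cultures and 14.8% ± 0.471 in whole DG, and Camk2d kept it, with 8.54% ± 2.25 in cultures and 0.383% ± 0.00850 in whole DG (both exact permutation p = 0.0667). The annotated exons of Camk2d span 22493 bases, of which its coding sequence takes 1795, while the exons of the other subunit genes span 6401 to 9125 bases, so dividing by exon length lowers its share the most. Per kilobase of coding sequence Camk2d made up 20.8% ± 4.87 of the 4 subunits in cultures (SD, n = 4), against 0.339% and 0.358% in the whole DG libraries. Camk2g was at 4.88% ± 0.694 in cultures per kilobase of coding sequence. Camk2d was then above Camk2g in every culture, with 14.0% against 5.92% in M2. On that scale and without Camk2a, Camk2b was at 74.1% ± 4.27 in cultures and 87.8% ± 0.346 in whole DG.

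**Figure D2:**
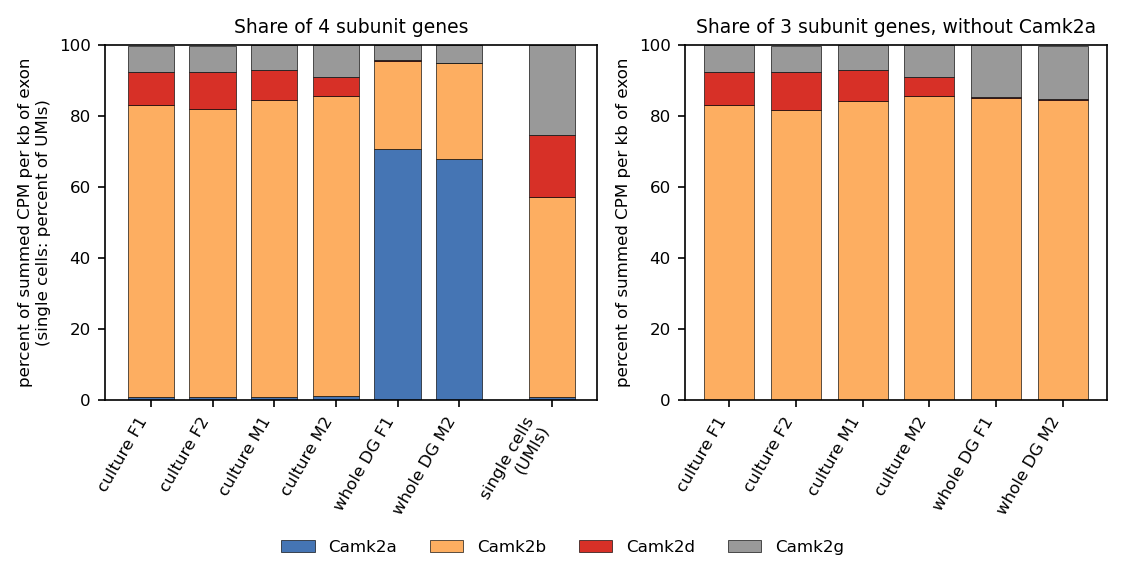
Share of each subunit gene in the summed subunit level of a library, in percent of CPM per kilobase of exon, for 4 cultures, 2 whole DG libraries and, as percent of UMIs with no length term, the single-cell library (left), and for the bulk libraries with Camk2a left out (right). Camk2a fills 70.7% and 68.0% of whole DG and a mean of 0.796% of the cultures; without it, Camk2b takes 83.8% in cultures and 84.8% in whole DG, and Camk2d 8.54% and 0.383%.

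In the bulk libraries, the inhibitor genes were lower relative to the subunit genes in the cultures than in whole DG. The summed level of Camk2n1 and Camk2n2 over that of the 4 subunit genes, per kilobase of exon, had a log2 ratio of -6.37, -6.23, -6.20 and -4.87 in cultures F1, F2, M1 and M2, against -1.87 in both whole DG libraries. Culture M2, with the most Camk2n2 reads and the most Camk2n1 CPM, stood above the other 3. Per kilobase of exon, the subunit level was 29.2 to 82.9 times the inhibitor level in the cultures and 3.65 to 3.67 times in whole DG. Per kilobase of coding sequence these were 15.98 to 54.5 and 0.960 to 0.965, and in raw counts 135 to 457 and 7.65 to 7.66. The size of the ratio within a library thus depends on the length used, while its direction between groups was the same on each scale. Per kilobase of exon, the mean log2 ratio of inhibitor to subunit differed by -4.05 (exact two-sided permutation p = 0.0667, the smallest possible). Without culture M2 the difference was -4.39. In the cultures the numerator rests on 7 to 17 reads a library.

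Female and male cultures were compared to see whether sex bears on these genes. None of the 4 CaMKII genes that passed the filter on low counts was called (0 of 4, with 0 at an unadjusted p under 0.05 and 0 by DESeq2), where 0.0264% of 15140 genes were called, 4 in all (0.00661% higher and 0.0198% lower in female cultures), with 942 at an unadjusted p under 0.05. Camk2d had the widest gap, 57.7 CPM in the female cultures and 43.2 CPM in the male ones (log2 difference 0.41, SE 0.34, edgeR adjusted p = 0.883). It rested on culture M2: without it the difference was -0.02. The log2 differences of Camk2a, Camk2b and Camk2g were -0.28, -0.12 and -0.14, female minus male. With 2 cultures of each sex these values do not show that the sexes are alike. Camk2n1 and Camk2n2 were below the filter.

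The other genes of calcium and calmodulin signalling give the setting. Calmodulin is the calcium sensor that activates the kinase. Calm3, a calmodulin gene, was at 236 ± 48.3 CPM in cultures and 1982 ± 73.3 CPM in whole DG (SD, n = 4 and n = 2, as throughout these lists; log2 -3.07, edgeR adjusted p = 2.09e-06). Calm2 was at 1433 ± 31.5 CPM in cultures and 1489 ± 100 CPM in whole DG, with overlapping libraries (log2 -0.06, SE 0.11, edgeR adjusted p = 0.674). Of 4 genes for small proteins with an IQ motif, the kind of motif through which neurogranin binds calmodulin, 1 was higher, 2 were lower and 1 was not called, with a median log2 difference of -4.22. Nrgn, neurogranin of neuronal dendrites, was at 5.54 CPM in cultures and 1456 CPM in whole DG (log2 -8.04, adjusted p = 6.55e-08) and Pcp4 at 0.328 and 186 CPM (log2 -9.16), while Pcp4l1 was at 107 CPM in cultures and 24.1 CPM in whole DG (log2 2.15, adjusted p = 0.00113).

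Of 14 other calmodulin-dependent kinase genes, 4 were higher, 8 lower and 2 not called, with a median log2 difference of -1.96 beside -0.13 for all tested genes. Camk1, a kinase of the CaMKK to CaMKI cascade, was at 275 ± 135 CPM in cultures and 29.6 ± 2.40 CPM in whole DG (log2 3.22, SE 0.43, edgeR adjusted p = 0.000184). Its upstream kinase Camkk1 was at 7.33 CPM in cultures and 390 CPM in whole DG (log2 -5.74, adjusted p = 1.38e-07), and Camkv, a kinase-like protein of synapses without kinase activity, at 6.37 and 733 CPM (log2 -6.84, adjusted p = 1.84e-05). Of 21 postsynaptic partners and substrates of CaMKII, 4 were higher, 16 lower and 1 not called, with a median of -5.46. The AMPA receptor subunit gene Gria1 was at 1.69 CPM in cultures and 1468 CPM in whole DG (log2 -9.75) and the exchange factor gene Kalrn at 4.62 and 874 CPM (log2 -7.56). Actn4, a widely expressed actin crosslinker, was at 437 ± 138 CPM in cultures and 131 ± 9.07 CPM in whole DG (log2 1.74, adjusted p = 0.000692). Cacng2, which encodes the AMPA receptor partner stargazin, had 0 reads in all 4 cultures.

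Of 14 genes for phosphatases that act on CaMKII, for calcineurin and for their regulators, 3 were higher and 11 lower, with a median log2 difference of -2.83. Ppp3ca and Ppp3r1, a catalytic and a regulatory subunit of calcineurin, were at 165 and 195 CPM in cultures, against 2466 and 1247 CPM in whole DG (log2 -3.90 and -2.68). Ppp1r9b, the spine protein spinophilin that targets protein phosphatase 1, was at 14.8 CPM in cultures and 1264 CPM in whole DG (log2 -6.42). Of 15 genes for calcium release from stores and refilling, 2 were higher, 9 lower and 4 not called, with a median of -3.51. The store pump gene Atp2a2 was at 66.3 ± 11.7 CPM in cultures and 873 ± 68.8 CPM in whole DG (log2 -3.72), the ryanodine receptor gene Ryr2 at 0.194 and 504 CPM (log2 -11.21), and the store sensor gene Stim2 at 115 ± 57.3 and 174 ± 10.0 CPM (log2 -0.59, edgeR adjusted p = 0.156). The 10 neuron markers moved with these lists, all lower with a median of -8.87. Their part in the differences was not tested. Among the genes named from these lists, exons overlap those of a gene on the same strand for Pcp4 (23.7% of exon bases) and Ppp3r1 (14.3%), and those of a gene on the opposite strand for Cacng2 (5.9%), Actn4 (5.2%), Camk1 (3.9%) and Atp2a2 (1.4%). The treatment of overlapping genes and the use of strand in counting are not stated, so these values are uncertain to that extent.

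**Figure D3:**
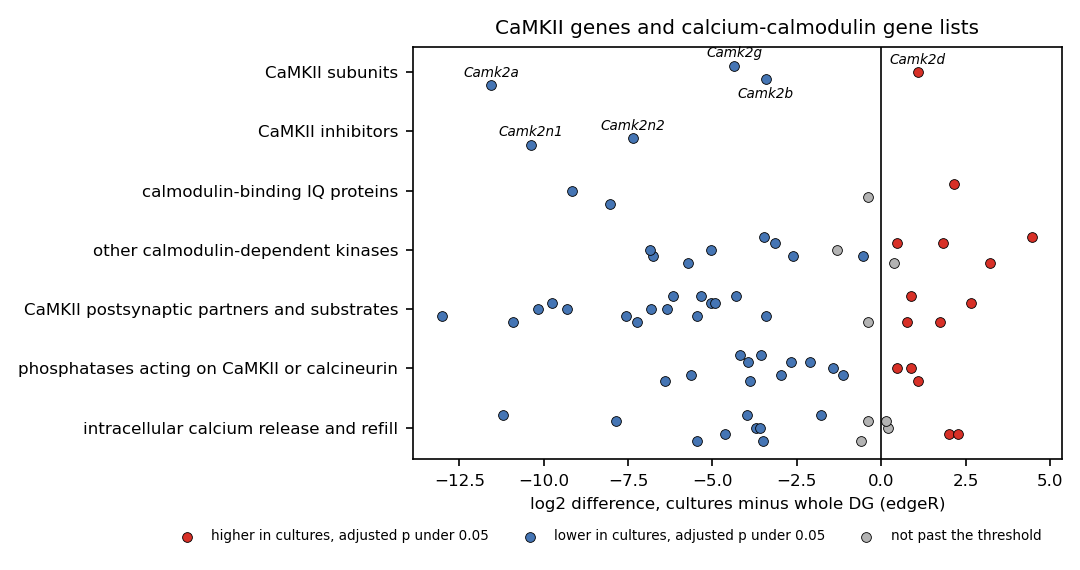
Log2 difference, cultures minus whole DG, of the CaMKII genes and of each member of 5 calcium-calmodulin lists (1 point a gene, spread vertically for legibility); red points were higher, blue points lower, and grey points not past an edgeR adjusted p of 0.05. Every list except the inhibitors has members on both sides of 0, and Camk2d at 1.08 is the one CaMKII gene on the right.

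Genes with the most similar levels over the 6 bulk libraries were looked for among 14317 tested genes by Euclidean distance in log2 CPM, a measure in which the difference between groups weighs most. Camk2a was nearest to Snap25, Agap2 and Nptxr (distances 2.55, 2.59 and 3.00), and Camk2b to Ppp3ca, Calm3 and Chn1 (0.81, 0.91 and 1.04). The neighbours of Camk2b thus included 2 genes of the lists above, a calcineurin subunit and a calmodulin gene. Camk2g was nearest to Git1, Ski and Zc3h7b (0.33, 0.41 and 0.53), and Camk2d to Ppip5k2, Eya1 and Slain2 (0.52, 0.54 and 0.58). Camk2n1 was nearest to Rapgefl1, Bsn and Kif5a (2.11, 2.15 and 2.30), and Camk2n2 to Cecr6, Frmpd4 and Rasl10a (1.14, 1.38 and 1.38).

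The single-cell library gave a second view of the cultures. The cells had 2001 to 8531 UMIs each, no barcode was repeated, and levels are given as UMIs per 1000000 with exact Poisson 95% intervals, which cover counting error only. Camk2b again led, at 58.3 UMIs per 1000000 (56.4 to 60.2), with a UMI in 21.2% of cells. Camk2n2 followed at 26.6 (25.3 to 27.9), then Camk2g at 26.0 (24.7 to 27.3), whose interval overlaps it, Camk2d at 18.1 (17.05 to 19.2), and Camk2n1 at 5.51 (4.94 to 6.13). Camk2a had 43 UMIs in all, 1 in each of 43 cells (0.288%, exact binomial 95% interval 0.209% to 0.388%), or 0.689 per 1000000. By total UMIs Camk2b ranked 2463 and Camk2a 12215 of 15536 genes. All cells were cultured NSPCs, so there is no cell type that should lack these genes from which to take the level that free RNA gives.

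Both assays put Camk2b first and Camk2a last among the subunit genes of the cultures, but they differed for the rest. Camk2b made up 56.6% (exact binomial 95% interval 55.4 to 57.8) of subunit UMIs, Camk2g 25.2% and Camk2d 17.5%, so that Camk2g was above Camk2d. In bulk cultures Camk2d averaged 2.24 and Camk2g 1.99 CPM per kilobase of exon, with culture M2 in the other order. Per kilobase of coding sequence Camk2d averaged 28.1 and Camk2g 6.44 CPM in bulk cultures. UMIs were not divided by length. UMIs per 1000000 over mean bulk CPM of the cultures came to 0.293 for Camk2b, 0.358 for Camk2d and 0.446 for Camk2a, but 2.04 for Camk2g, 8.81 for Camk2n1 and 63.2 for Camk2n2. The inhibitors, with 7 to 17 bulk reads a library, thus had 2005 UMIs in the single cells, or 0.312 (0.296 to 0.328) for each subunit UMI. The bulk CPM set under the UMIs were not divided by length either. Annotated exons span 1291 bases in Camk2n2, 4444 in Camk2n1 and 6401 to 22493 in the subunit genes. The single-cell and bulk libraries also differ in chemistry and in the cultures used. The part of length, chemistry and cultures in these gaps was not tested. The bulk ratio of inhibitor to subunit in whole DG was 0.131 in raw counts and 0.273 to 0.274 per kilobase of exon. Per kilobase of coding sequence it was 1.04. The very low inhibitor level of the cultures, and their lower inhibitor to subunit ratio than in whole DG, therefore stand for the bulk assay only.

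No test was made across clusters, since they come from 1 library and were made from the same genes. Camk2b was highest in cluster 0, at 71.4 UMIs per 1000000 (67.2 to 75.8), and lowest in cluster 5, at 47.7 (41.6 to 54.5), with 48.3, 56.2, 61.0 and 55.6 in clusters 1, 2, 3 and 4. Camk2g was between 21.9 (cluster 5) and 29.1 (cluster 0), with overlapping intervals for most pairs of clusters. Camk2d was at 15.4 to 20.6 in clusters 0 to 4 and at 25.6 (21.2 to 30.7) in cluster 5, an interval that overlaps that of cluster 0 (18.4 to 23.1). In cluster 5 Camk2d made up 26.7% (22.6 to 31.1) of subunit UMIs, against 16.2% to 17.7% in the other 5 clusters, and was there above Camk2g at 22.8%.

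Camk2n2 varied the most of the well-measured genes. It was at 40.5 UMIs per 1000000 (37.3 to 43.7) in cluster 2 and 32.6 (28.7 to 36.7) in cluster 3, and at 18.3, 21.9, 19.7 and 20.1 in clusters 0, 1, 4 and 5. It had a UMI in 17.1% of the cells of cluster 2 and in 6.83% of those of cluster 0, whose median depths were 4731 and 3749 UMIs. With every cell thinned to 2000 UMIs its levels were 41.7 in cluster 2, 33.5 in cluster 3 and 18.6 in cluster 0. The 6 cycling markers summed to 1547 UMIs per 1000000 in cluster 2 and 456 in cluster 3, but to 2599 in cluster 4, so Camk2n2 did not follow their sum. Camk2n1 stayed between 3.64 and 6.19 in all 6 clusters with overlapping intervals. The inhibitor to subunit ratio in UMIs was highest in cluster 2, at 0.489 (0.447 to 0.535), and lowest in cluster 0, at 0.198 (0.177 to 0.222).

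**Figure D4:**
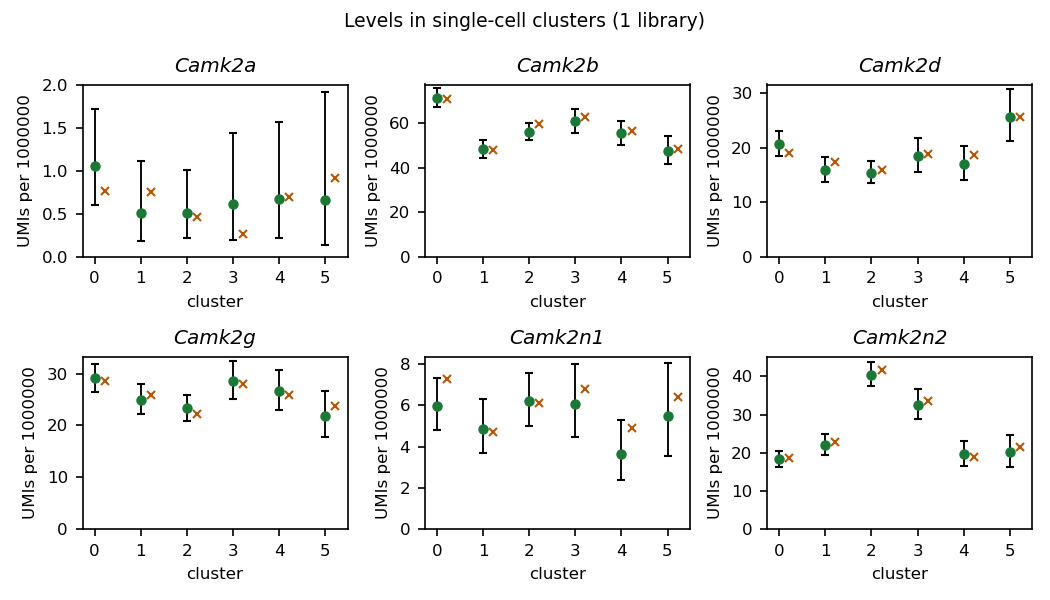
Level of each CaMKII gene in the authors' clusters 0 to 5 of the single-cell library, in UMIs per 1000000 (green circles, with exact Poisson 95% intervals that cover counting error only), and after thinning every cell to 2000 UMIs (orange crosses). Camk2n2 stands out in clusters 2 and 3 at 40.5 and 32.6, and Camk2d is highest in cluster 5 at 25.6.

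At this depth a cell seldom showed more than 1 subunit gene. No UMI of any of the 4 subunit genes was found in 9814 cells (65.8%), exactly 1 gene was found in 4443 (29.8%), 2 in 629 (4.22%), 3 in 26 (0.174%) and all 4 in none. Of cells with a Camk2b UMI, 8.05% also had one of Camk2d, where 7.05% of all cells did, and 10.8% had one of Camk2g, where 10.2% of all cells did. Deeper cells show more genes of any kind (median 4630 UMIs in cells with both Camk2b and Camk2d, against 4048.5 in all cells), so these shares do not separate co-expression from depth.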

How the data were processed

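The authors' deposited bulk table holds raw counts per gene and library. Per the submitters' processing notes, CASAVA 1.8.2, HISAT2 2.0.6, Subread and featureCounts were used and GRCh38 is named, although the symbols are those of mouse. Counting options, with strand use among them, are not stated. Counts were tested with edgeR 4.0.16 (quasi-likelihood, robust, TMM, default filter, Benjamini-Hochberg over all tested genes, threshold 0.05) with group as the only term; DESeq2 1.42.0 was an alternative. Within each bulk group the labels describe separate cultures or animals. The p-values thus set a difference between groups against the spread between libraries within a group. For cultures against whole DG that difference includes the library kit. Gene positions and lengths are from GENCODE M21. The authors' deposited single-cell values are the natural log of 1 plus UMIs per 10000, made with Cell Ranger 3.1.0 and Seurat 3.1.0 per the submitters' processing notes. UMIs were recovered (100% of entries within 0.01 of a whole number). No cell as deposited had under 2000 UMIs, and no further cell filter or doublet caller was applied. Intervals are at 95%. Shares and ratios were tested by exact permutation over libraries. Marker lists are given as counts and sums, with Map2 named for its part in a sum. Sox2, Sox10, C1qa, Aif1, Cldn5, Cacng2 and Pcp4l1 follow from counts given. Named genes were otherwise the members, the 3 most abundant genes of each calcium or calmodulin list and the 3 nearest genes of each member. A gene that this rule names is not reported here. The scripts were tested on simulated data. Members and lists were chosen with earlier results of these data known.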

Additional observations from a re-analysis of the deposited data

Results flagged for a closer look

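Dixon's gap was taken over the 4 cultures for 11 quantities, and chance alone passes its limit in about 1 of 20 such groups. It passed the limit for 4 values in 2 cases, both because of culture M2. For the Camk2d level the gap below the other cultures was 0.842 of the range: M2 was at 28.3 CPM and the others at 55.2 to 60.3 CPM. For the log2 ratio of inhibitor to subunit transcripts the gap was 0.886 of the range: M2 was at -4.87 and the others at -6.37 to -6.20, where M2 had 17 inhibitor reads in 10042238 counts.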

How the results depend on the processing

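All 6 CaMKII genes kept their direction between cultures and whole DG under every alternative run. These were 2 other scalings, 2 other filters, DESeq2, DG counts thinned to culture depth, sex as a term, a replicate block, a test for a fold above 2, and leaving out each library. The scalings moved the median of all genes from -0.23 (DESeq2 factors) to 0.05 (upper quartile), and Camk2d lay between 0.98 and 1.26 under them. The call was kept in 87 of these values and lost in 3, all of Camk2d: 5 genes were called when a fold above 2 was asked for (adjusted p = 0.285) or when either whole DG library was left out, and 6 otherwise. Leaving out each library in turn, the genes called over the whole table ranged from 11815 to 14038. F1 and M2 name a library in both groups but the labels tie no animals, and deviations correlated at r = 0.055 across 18088 genes. With that replicate block, all 6 genes were called, 13677 genes in all, and Camk2d was at 0.78 (adjusted p = 0.0392). Without Camk2a the difference in share turned to -1.06 points for Camk2b and -7.09 points for Camk2g, while that of Camk2d stayed at 8.15 points. The log2 inhibitor to subunit difference ranged from -5.53 (Camk2n1 alone) to -3.89. Between the sexes, genes called numbered 4, but 60 by DESeq2, 273 with no filter, and 3 to 81 leaving out each culture, with no CaMKII gene in any; the difference turned to 0.0626 for Camk2b without M1 and to -0.0205 for Camk2d without M2, within ranges of -0.2892 to 0.0626 and -0.0205 to 1.0117 when each culture was left out. The cause of these changes was not tested. Depth limits Camk2a, Camk2n1 and Camk2n2 in the bulk cultures, at 2 to 18 reads a library.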
